A study of Mus musculus with 44 samples.

Results

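Genes of voltage-gated calcium and sodium channels, of hyperpolarization-activated HCN channels and of CLC chloride channels and transporters were followed in the ribosome-bound RNA of amygdala Crh neurons. The members are all rows whose symbol starts with Cacna, Cacnb, Cacng, Hcn or Clcn and a digit, or is Scn, a digit and a or b. They number 24 of the 8203 rows. They include the pore subunit Cacna1e, the α2δ subunits Cacna2d1 and Cacna2d3, the β subunits Cacnb1, Cacnb2, Cacnb3 and Cacnb4, the γ family members Cacng2, Cacng3 and Cacng4, the sodium pore subunits Scn1a, Scn2a, Scn3a and Scn8a, the sodium β subunits Scn2b, Scn3b and Scn4b, the pore subunit Hcn2, and Clcn2, Clcn3, Clcn4 and Clcn6. Other members of these families were not analysed here.

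The 44 samples each came from amygdala punches of an individual adult mouse, labelled Central Amygdala. All were first-generation Crh-TRAP mice, heterozygous for a Crh-Cre transgene and for a Cre-dependent eGFP-L10a allele at Rosa26, so that ribosomes carry GFP in cells in which Cre has acted. TA mice (n = 16, 10 male and 6 female) heard tones with the shocks omitted. FC mice (n = 12, 6 and 6) received 5 tone-shock pairings at 0.65 mA. EXT mice (n = 16, 10 and 6) were conditioned in the same way and heard 30 tones without shock in another context on the following day.

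Values are log2 cpm, the reads of a gene per 1000000 reads of its library. Reads could be recovered from each value, and the fewest for any member in any mouse were 52, with member medians between 222 and 2634 reads over mice. Effective library sizes ranged from 12802113 to 20440351 reads and were lower in EXT mice (median 15412341) than in TA (18015590) and FC mice (16977973). The labels give 5 batches. Batches 1, 2 and 5 hold all 3 groups, and batches 3 and 4 hold 5 and 1 EXT mice and no others, where batch cannot be told apart from extinction. The cell type label was set against fixed markers. Crh was present in every mouse, from 3.15 to 7.17 log2 cpm, and the summed level of Gad1 and Gad2, the enzymes that make GABA, lay between 9.26 and 10.65, while the GABA transporter gene Slc32a1 is not among the rows. Markers of other cells were also present. The summed level of 6 of 6 oligodendrocyte markers ranged from 10.40 to 14.13, of 6 of 6 astrocyte markers from 9.14 to 11.46, of 2 of 5 glutamatergic markers from 4.34 to 8.34 and of 4 of 5 choroid plexus markers from 7.54 to 15.64. Of the microglial markers 1 of 5 is among the rows, and none of the endothelial and oligodendrocyte precursor markers is. In such a pulldown, fewer cells of a type and less RNA per cell cannot be told apart.

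As background, voltage-gated calcium and sodium channels consist of a large pore-forming α subunit and smaller auxiliary subunits. Sodium channels carry the upstroke of the action potential, calcium channels couple depolarization to transmitter release and to signalling inside the cell, and HCN channels carry an inward current on hyperpolarization that sets resting excitability. CLC proteins include a plasma membrane chloride channel, encoded by Clcn2, and chloride-proton exchangers of endosomes and lysosomes, encoded by Clcn3, Clcn4 and Clcn6. The Cacng genes belong by sequence to the calcium channel γ subunits, but Cacng2 (stargazin), Cacng3 and Cacng4 are best known as auxiliary subunits of AMPA-type glutamate receptors, which they help to bring to the synapse.

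RefSeq promoters, 300-base windows that lie mostly upstream of a start site (GRCm38.p6), were matched for 19 of the 24 members, which have 28 of them. The 2 members that passed the false discovery rate in EXT vs TA, described below, are shown first. Those of Clcn3 and Clcn4 are shown because they hold the full cyclic AMP response element TGACGTCA, the sequence bound by CREB. Sequences are given 5′ to 3′ on the strand of the gene, and capitals mark that element and the GC box (GGGCGG, or CCGCCC on the opposite strand). They lie at chr15:78119231-78119530 for Cacng2, chr11:98022578-98022877 for Cacnb1, chr8:60983262-60983561 for Clcn3 and chr7:7299508-7299807 for Clcn4, each on the minus strand.
Cacng2: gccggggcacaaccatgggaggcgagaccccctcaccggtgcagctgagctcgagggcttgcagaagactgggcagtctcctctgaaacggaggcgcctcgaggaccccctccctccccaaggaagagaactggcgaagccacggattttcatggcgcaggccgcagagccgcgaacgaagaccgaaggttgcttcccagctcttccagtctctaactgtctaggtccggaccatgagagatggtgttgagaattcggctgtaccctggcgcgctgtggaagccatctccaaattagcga
Cacnb1: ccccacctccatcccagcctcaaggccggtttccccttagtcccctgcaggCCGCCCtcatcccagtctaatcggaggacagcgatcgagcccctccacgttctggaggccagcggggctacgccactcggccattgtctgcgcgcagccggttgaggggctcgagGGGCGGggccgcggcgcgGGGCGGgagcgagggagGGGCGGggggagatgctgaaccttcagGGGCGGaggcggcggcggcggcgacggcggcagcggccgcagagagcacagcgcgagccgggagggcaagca
Clcn3: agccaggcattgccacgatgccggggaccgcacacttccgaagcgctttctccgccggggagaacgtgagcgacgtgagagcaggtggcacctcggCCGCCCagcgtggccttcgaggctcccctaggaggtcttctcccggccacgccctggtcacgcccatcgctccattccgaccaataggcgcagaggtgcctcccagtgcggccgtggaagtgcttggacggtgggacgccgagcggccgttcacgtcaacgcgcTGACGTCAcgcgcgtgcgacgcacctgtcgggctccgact
Clcn4: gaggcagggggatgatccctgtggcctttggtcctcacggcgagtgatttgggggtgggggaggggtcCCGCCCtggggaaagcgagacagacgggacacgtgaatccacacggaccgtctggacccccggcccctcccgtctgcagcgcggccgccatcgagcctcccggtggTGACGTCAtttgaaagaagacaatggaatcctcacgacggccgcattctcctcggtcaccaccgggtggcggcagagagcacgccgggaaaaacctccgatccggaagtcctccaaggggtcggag

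The Cacng2 window holds none of the motifs searched, and the Cacnb1 window shown holds 5 GC boxes. A second Cacnb1 promoter, at chr11:98018323-98018622, holds none of them. Clcn3 and Clcn4 also have a second promoter each, without the full element. Over the members, the full element occurred in 2 of 28 promoters, those of Clcn3 and Clcn4, against 1.79% of all 32851 RefSeq promoters of the same length. Its core (TGACG, or CGTCA on the opposite strand, which is also part of the full element) occurred in 7 of 28, against 20.8%, and the GC box in 13 of 28, against 35.7%. The AP-1 motif TGANTCA occurred in 0 of 28, against 7.81% of all promoters. Median GC content was 63.3% in the member promoters and 52.7% in all promoters. Clcn3 and Clcn4 themselves had log2 fold changes of -0.14 and 0.03 in EXT vs TA, and neither reached an unadjusted p under 0.05.

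Levels of different genes were compared as log2 cpm per kb of merged exons. Among the highest were Cacng3 at 5.36 ± 0.29 (SD, n = 44) and the calcium channel β3 subunit gene Cacnb3 at 5.16 ± 0.38. Cacna1e, which encodes the pore of R-type calcium channels, was the lowest at -0.45 ± 0.63, below Scn3a, a sodium channel pore gene best known from the developing brain, at 0.46 ± 0.49. Among all 8007 rows with a length, Cacna1e stood at percentile 0.375. The median over members was 2.77, against 3.58 over all rows, and 9 of 24 members were above the latter. The gap between neighbours in the order was larger than the larger SD of the pair at only 4 places, among them after Cacnb3, after Cacng4 and before Cacna1e, so most neighbours did not differ beyond their spread. With the longest transcript as length, Cacna1e was at 0.30 and Scn3a at 0.85, and Cacna1e was still the lowest of the 24.

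**Figure D1:**
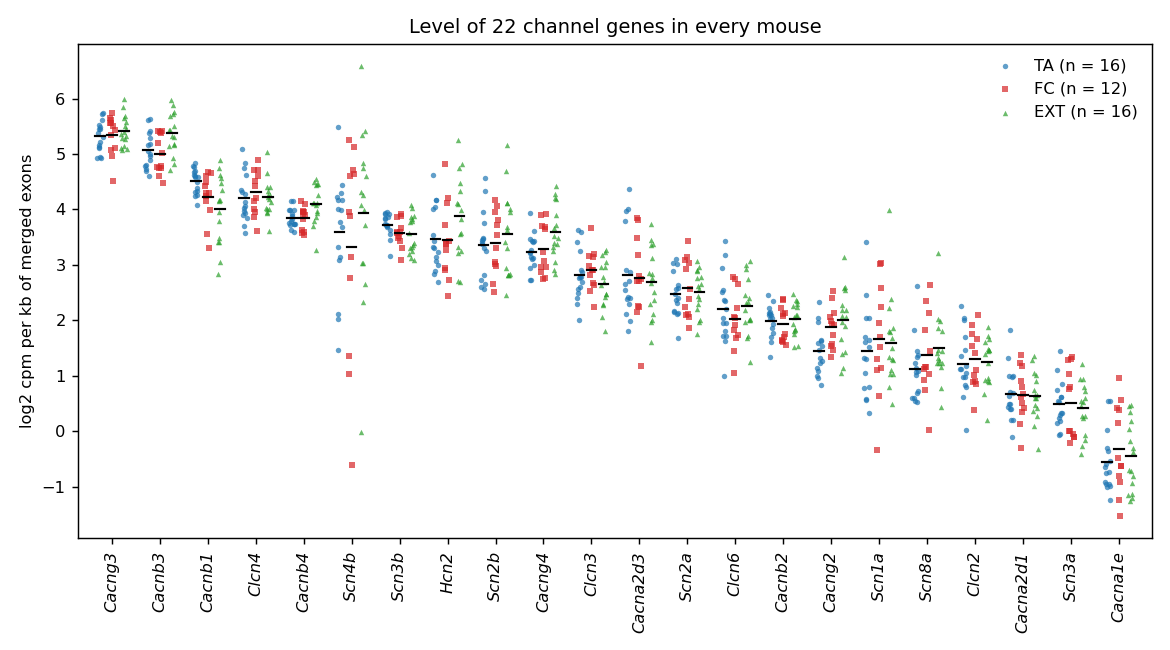
Level of each of 22 of the genes in every mouse, as log2 cpm per kb of merged exons, in order of the mean over mice. Points are mice (16 TA, 12 FC, 16 EXT) and bars are group means. Cacng3 lies at the top (mean 5.36), Cacna1e at the bottom (mean -0.45), and Scn4b has the widest spread.

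Family make-up was taken as shares of the summed cpm per kb of a family's members among the rows, as mean ± SD over 44 mice. Genes of a family that are not among the rows do not enter these sums. Of the sodium pore genes, Scn2a carried 45.1 ± 7.8%, Scn1a 24.0 ± 8.1%, Scn8a 19.7 ± 3.5% and Scn3a 11.2 ± 3.2%. Single mice varied widely, from 24.0 to 60.2% for Scn2a and from 9.24 to 47.8% for Scn1a. Scn2a exceeded Scn8a in 43 of 44 mice and Scn1a in 40 of 44. Clcn4 carried 57.4 ± 3.6% of the CLC sum and exceeded Clcn3, Clcn6 and Clcn2 in every mouse.

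The calcium channel families were also uneven. Cacna2d3 carried 80.5 ± 6.0% of the α2δ sum. Cacng3 carried 74.3 ± 5.9% of the γ sum, Cacng4 19.3 ± 4.7% and Cacng2 6.44 ± 2.1%, an order that held in all 44 mice. Among the β subunits, which bring the pore subunit to the membrane and shape its gating, Cacnb3 carried 47.7 ± 7.5%, Cacnb1 26.4 ± 7.3%, Cacnb4 20.5 ± 3.8% and Cacnb2 5.33 ± 1.1%. The Cacnb1 share was 30.6 ± 4.6% in TA, 27.2 ± 4.7% in FC and 21.7 ± 8.5% in EXT mice, and that of Cacnb3 44.9 ± 6.5%, 46.0 ± 5.1% and 51.7 ± 8.6%. The Cacng2 share was 5.39 ± 1.7% in TA, 7.07 ± 2.3% in FC and 7.02 ± 2.0% in EXT mice. Shares of a family move against each other, so they were not tested.

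Several members are neighbours in the genome (GRCm38). Scn3a, Scn2a and Scn1a lie in a row on chromosome 2, 53143 and 503330 bases apart, and Scn2b and Scn4b lie 8324 bases apart on chromosome 9. Scn2b and Scn4b are transcribed in the same direction.

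EXT vs TA (n = 16 and 16) sets conditioning followed by extinction against tones alone. Unlike TA mice, EXT mice had shocks, a further day, another context and more tones. Extinction cannot be told apart from these. 2 of 24 members passed the false discovery rate (FDR) of 0.05 in limma, with the batch number and sex as covariates. Cacng2 was higher and Cacnb1 was lower after EXT. Over all rows 21.4% passed, 10.4% higher and 11% lower, so the share of the channel genes was below the background. At an unadjusted p under 0.05 there were 7 members, 6 higher and 1 lower, against 37.8% of all rows (19.1% higher and 18.7% lower). The remaining 22 members had log2 fold changes between -0.18 and 0.41. When the batches entered as categories, which compares the groups only inside batches 1, 2 and 5, 0 members passed the FDR and 2 had an unadjusted p under 0.05, against 0.0244% and 21.1% of all rows. Those 2, Scn2b and Cacng2, were both higher, as were 10.2% of all rows. Without batches 3 and 4, 0 members passed the FDR and 1 had an unadjusted p under 0.05, against 0.0366% and 18.8%. With library size as a covariate there were 0 and 0, against 0% and 5.47%. With the batch number and sex alone as covariates, 17 of the 24 members were higher and 7 lower, while 50.8% of all rows were higher, and the median log2 fold change was 0.08 against 0.005 over all rows. With categories and library size together the count turned to 8 higher and 16 lower, with a median of -0.03, while 50.7% of all rows were higher.

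Cacng2 (chr15:77991748-78120028, minus strand) ranged from 3.29 to 4.80 log2 cpm in TA mice with a median of 3.86, while FC mice lay between 3.80 and 4.98 (median 4.38) and EXT mice between 3.51 and 5.61 (median 4.53). The groups overlapped, but 13 of 16 EXT mice and 11 of 12 FC mice were above the TA median. The means were 3.90 ± 0.42 in TA, 4.34 ± 0.37 in FC and 4.47 ± 0.57 in EXT mice (SD). The EXT vs TA log2 fold change was 0.57 (SE 0.17, FDR-adjusted p from limma 0.0193). With batches as categories it was 0.42 (p = 0.0271, FDR-adjusted p from limma 0.186). EXT mice were higher on average by 0.42, 0.40 and 0.39 inside batches 1, 2 and 5. The means differed by a like amount in every batch that holds both groups, although single mice overlapped in each. Batch 1 holds only 2 EXT mice, at 3.51 and 5.01, against a TA mean of 3.84. The call held in 32 of 32 fits with the batch number that left out a mouse. These fits all keep EXT mice of batches 3 and 4, so they do not address that confounding. The 6 EXT mice of batches 3 and 4 averaged 4.74 ± 0.58 and the 10 other EXT mice 4.32 ± 0.53. With log2 library size as a covariate the fold change was 0.37 (FDR-adjusted p from limma 0.700), and library size moves with the groups here. Its part in the result was not tested further.

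Cacnb1 (chr11:98001508-98023034, minus strand) encodes a calcium channel β subunit. It ranged from 6.26 to 7.02 log2 cpm in TA mice with a median of 6.77, while FC mice lay between 5.49 and 6.85 (median 6.47) and EXT mice between 5.01 and 7.07 (median 6.34). Below the TA median were 13 of 16 EXT mice and 9 of 12 FC mice, and the highest value of all was in an EXT mouse. The EXT vs TA log2 fold change was -0.51 (SE 0.16, FDR-adjusted p from limma 0.0258). With batches as categories it was -0.20 (p = 0.159, FDR-adjusted p from limma 0.407). Inside batches 1, 2 and 5 the difference was -0.26, -0.71 and 0.16, so its sign turned in batch 5. The 6 EXT mice of batches 3 and 4 averaged 5.68 ± 0.58, the 10 EXT mice of the other batches 6.49 ± 0.42, and the TA mice 6.70 ± 0.22. The call was lost when EXT mouse 21 of batch 2, or 25 or 53 of batch 3, was left out (FDR-adjusted p from limma 0.0504, 0.0506 and 0.0503). With library size as a covariate the fold change was -0.38 (FDR-adjusted p from limma 0.700).

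**Figure D2:**
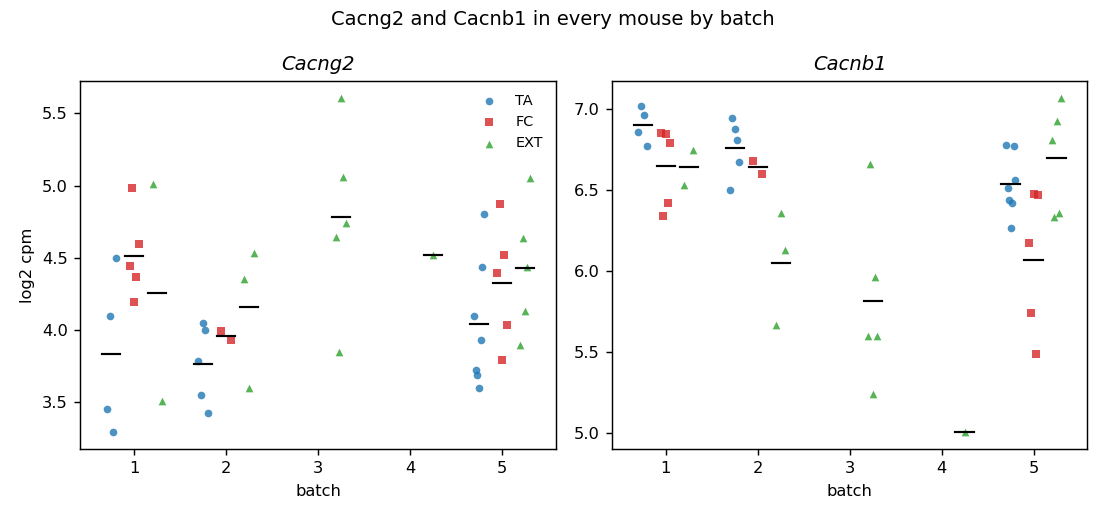
Cacng2 (left) and Cacnb1 (right) in log2 cpm by batch. Points are mice, with TA as circles, FC as squares and EXT as triangles, and bars are the means of a group inside a batch. EXT means of Cacng2 lie above TA means by 0.42, 0.40 and 0.39 in batches 1, 2 and 5. Low Cacnb1 values lie in EXT mice of batches 2, 3 and 4 and in FC mice of batch 5.

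The other members that the naming rule singles out did not pass the FDR in EXT vs TA. Cacnb3 ranged from 6.60 to 7.63 in TA (median 7.03), from 6.48 to 7.43 in FC (6.91) and from 6.72 to 7.97 in EXT mice (7.38). It gave a log2 fold change of 0.29 (unadjusted p = 0.0243 from limma), and 0.09 with batches as categories. As for Cacnb1, the EXT mice of batches 3 and 4 stood apart, but upwards, at 7.68 ± 0.24 against 7.19 ± 0.31 in the other EXT mice. Cacnb4, whose β4 subunit is lost in the lethargic mouse, ranged from 6.75 to 7.32 in TA (median 6.97), 6.71 to 7.31 in FC (7.08) and 6.43 to 7.71 in EXT mice (7.28). Its fold change was 0.25 (unadjusted p = 0.0188 from limma), and 0.16 with categories. Of the 16 EXT mice, 13 were above the TA median for Cacnb3 and also for Cacnb4. Cacng4, with a fold change of 0.37, came nearest to the threshold without passing it (FDR-adjusted p from limma 0.0545), and it was 0.21 with categories.

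Among the sodium channel genes, Scn8a, which encodes the Nav1.6 pore of the axon initial segment, ranged from 4.51 to 6.59 in TA (median 5.06), 4.00 to 6.62 in FC (5.14) and 4.42 to 7.19 in EXT mice (5.34). 14 of 16 EXT mice were above the TA median. The EXT vs TA fold change was 0.40 (unadjusted p = 0.0470 from limma) and 0.37 with categories (p = 0.0543), and inside batches 1, 2 and 5 the difference was 0.59, 0.28 and 0.30. The batch 1 value rests on 2 EXT mice, at 5.38 and 7.19, against a TA mean of 5.69.

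Scn2b, the β2 subunit gene, gave another value under each handling of batch. It ranged from 4.79 to 6.78 in TA (median 5.61), 4.73 to 6.38 in FC (5.64) and 4.68 to 7.37 in EXT mice (5.74). The fold change was 0.18 with the batch number (p = 0.433) and 0.55 with categories (p = 0.0132, FDR-adjusted p from limma 0.159). Inside batches 1, 2 and 5 the difference was 0.66, 0.00 and 0.84. In batch 5 the 5 EXT mice lay between 6.18 and 6.90, and the 7 TA mice between 4.87 and 6.18. The 6 EXT mice of batches 3 and 4 were at 5.20 ± 0.32, against 6.11 ± 0.75 in the other 10 EXT mice.

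The least abundant and the remaining named members had small fold changes over all EXT and TA mice. Cacna1e ranged from 3.42 to 5.20 in TA (median 3.97), 3.13 to 5.61 in FC (4.10) and 3.40 to 5.13 in EXT mice (4.12), with a fold change of 0.12. Scn3a ranged from 3.57 to 5.09 (median 4.07), 3.43 to 4.98 (4.02) and 3.22 to 4.85 (4.13) in the same order, with a fold change of -0.06. Cacng3 ranged from 6.40 to 7.22 (median 6.81), 5.99 to 7.22 (6.95) and 6.54 to 7.46 (6.85), with a fold change of 0.09. Clcn6 ranged from 3.55 to 6.0 (median 4.68), 3.61 to 5.35 (4.55) and 3.82 to 5.65 (4.81). Its fold change was 0.08 with the batch number and -0.08 with categories. Inside batches 1, 2 and 5 the difference was -0.34, -0.17 and 0.09 for Clcn6 and -0.29, -0.47 and 0.17 for Scn3a. For Cacna1e, Scn3a, Cacng3 and Clcn6 the unadjusted p from limma lay above the threshold in each case. The 95% intervals of 23 of 24 members excluded changes of more than 1 on the log2 scale in either direction, Scn4b being the exception, and they reached a median of 0.30 to either side.

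**Figure D3:**
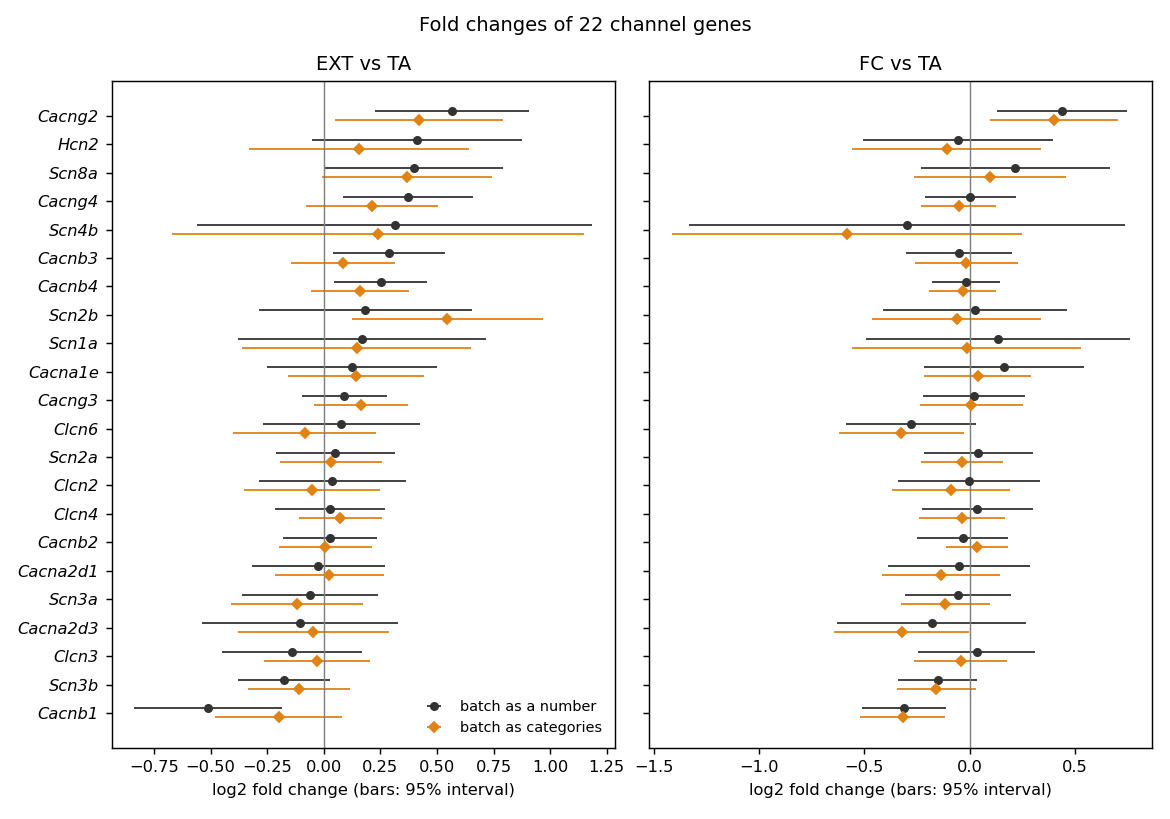
Log2 fold changes of 22 of the genes in EXT vs TA (left) and FC vs TA (right), with 95% intervals as bars. Circles are fits with the batch number and diamonds fits with batches as categories. Cacng2 lies right of 0 in both panels, and the Cacnb1 interval in EXT vs TA crosses 0 only with categories.

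Counted inside the batches that hold both groups, 10 members were higher in EXT than in TA mice in each of batches 1, 2 and 5, against 19.2% of all rows, and 1 was lower, against 19.3%. Among the 10 were Cacng2, Cacng3, Cacna1e, Cacnb4, Scn1a, Scn2b, Scn8a, Hcn2 and Clcn4. The smallest differences among the 10 were near 0, such as 0.01 for Cacnb4 and Cacna1e in batch 2. Batch 1 holds only 2 EXT mice and batch 2 only 3. The genes are not independent of each other, and the count was not tested.

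**Figure D4:**
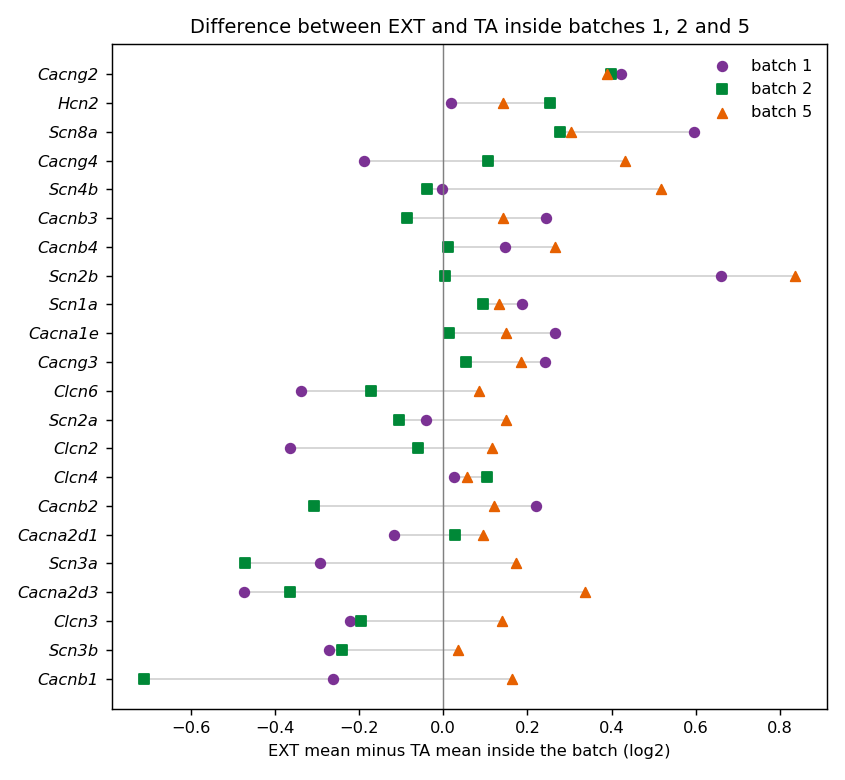
EXT mean minus TA mean in log2 cpm inside batches 1 (circles), 2 (squares) and 5 (triangles) for 22 of the genes, in the order of the fold change over all mice. The Cacng2 values lie together near 0.4, whereas those of Cacnb1 run from -0.71 to 0.16.

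FC vs TA (n = 12 and 16) sets tone-shock pairings against tones alone. No group had shocks without pairing, so conditioning and shock exposure cannot be told apart. In limma 0 of 24 members passed the FDR, as did 0 of all rows. At an unadjusted p under 0.05 there were 2 members, against 10.4% of all rows (4.22% higher and 6.18% lower). They were the same genes as in EXT vs TA, but both comparisons use the same TA mice and are not independent. Cacnb1 was at -0.31 (SE 0.10, unadjusted p = 0.00349 from limma, FDR-adjusted p 0.332) and at -0.32 with categories. The difference was -0.25, -0.12 and -0.47 inside batches 1, 2 and 5. Cacng2 was at 0.44 (SE 0.15, unadjusted p = 0.00694 from limma, FDR-adjusted p 0.356) and at 0.40 with categories, with 0.68, 0.20 and 0.28 inside the batches. Clcn6, which encodes a late endosomal exchanger, came next by p, with -0.28 (unadjusted p = 0.0762 from limma) and -0.32 with categories (p = 0.0345). With categories 4 members had an unadjusted p under 0.05, against 16.8% of all rows, and Cacna2d3, at -0.32, was added. Of these 1 was higher and 3 were lower, against 8.61% and 8.2%. Inside the batches 6 of 24 kept their sign, 1 higher and 5 lower, against 33.9% of all rows (17.1% higher and 16.8% lower).

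EXT vs FC (n = 16 and 12) sets conditioning followed by extinction against conditioning alone. The groups also differ in the time since shock, the context and the tones heard. These cannot be told apart from extinction. In limma 0 members passed the FDR, as did 0 of all rows. An unadjusted p under 0.05 was found for 3 members, against 19.3% of all rows. All 3 were higher after EXT (11% of all rows were higher and 8.35% lower), among them Cacnb3 by 0.35 (unadjusted p = 0.0173 from limma) and Cacnb4 by 0.26 (p = 0.0414). With categories these were 0.16 and 0.20, and only Scn2b, at 0.66 (unadjusted p = 0.00465 from limma, FDR-adjusted p 0.975), had a p under 0.05, against 4.19% of all rows (2.22% higher). Without batches 3 and 4 there were 0 such members, against 4.41% of all rows, and with library size as a covariate 1, against 4.83%. Cacng2 and Cacnb1 were at 0.12 (95% interval -0.26 to 0.51) and -0.19 (-0.61 to 0.23), and Cacnb1 turned to 0.17 with categories. Both intervals include no difference, and neither gene was shown to be alike in EXT and FC mice. No member had groups that did not overlap in any of the 3 comparisons, as was the case for all 8203 rows.

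An interaction term tested whether the effects differed between males and females. In EXT vs TA, 0 members passed the FDR in limma and 0 had an unadjusted p under 0.05, against 4.13% of all rows. Cacng2 was at 0.61 in males (10 and 10 mice) and 0.49 in females (6 and 6), and Cacnb1 at -0.56 and -0.44. In FC vs TA, 0 passed the FDR and 1 had an unadjusted p under 0.05, against 6.58% of all rows. That gene was Cacng2, at 0.81 in females (6 and 6 mice) and 0.15 in males (6 FC and 10 TA mice). The difference was -0.66 for males minus females (unadjusted p = 0.0279 from limma, FDR-adjusted p 0.744), so it did not hold after correction. The 95% intervals of these differences reached a median of 0.62 to either side in EXT vs TA, from 0.39 to 1.82 over members. In FC vs TA the median was 0.55, from 0.33 to 2.08. Sex differences inside a member's own interval were not excluded.

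Spread between mice was larger than these differences for most members. The SD over 44 mice ran from 0.27 for Scn3b to 1.46 for Scn4b, with a median of 0.47 against 0.39 over all rows. Batch accounted for a median of 43.8% of the variance of members, from 8.59% for Cacng3 to 67.7% for Cacna1e, and group for 2.99%, against 41.5% and 7.93% over all rows. In 23 of 24 members batch accounted for more than group, the exception being Cacng2, with 21.4% for batch and 23.6% for group. The groups are unevenly spread over the batches, so these shares overlap.

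Scn4b, which encodes the β4 subunit known for resurgent sodium current and was chosen after its values were seen, had the widest spread. It ranged over 7.20 on the log2 scale, from 52 to 6216 reads, and its SD ranked 17 from the top of 8203 rows. Values ran from 3.79 to 7.81 in TA mice (median 6.20), from 1.70 to 7.56 in FC mice (6.23) and from 2.31 to 8.90 in EXT mice (6.48). The lowest values were in 1 FC and 1 EXT mouse of batch 2, at 1.70 and 2.31, and the highest in an EXT mouse of batch 5. Batch accounted for 33.7% of its variance and group for 2.91%. The EXT vs TA fold change was 0.31 (SE 0.43), with an interval of -0.56 to 1.19. Leaving out EXT mouse 60 of batch 5 gave 0.15 and leaving out EXT mouse 51 of batch 2 gave 0.58. Its neighbour Scn2b spread over 2.70 and Scn1a over 4.34 on the log2 scale.

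**Figure D5:**
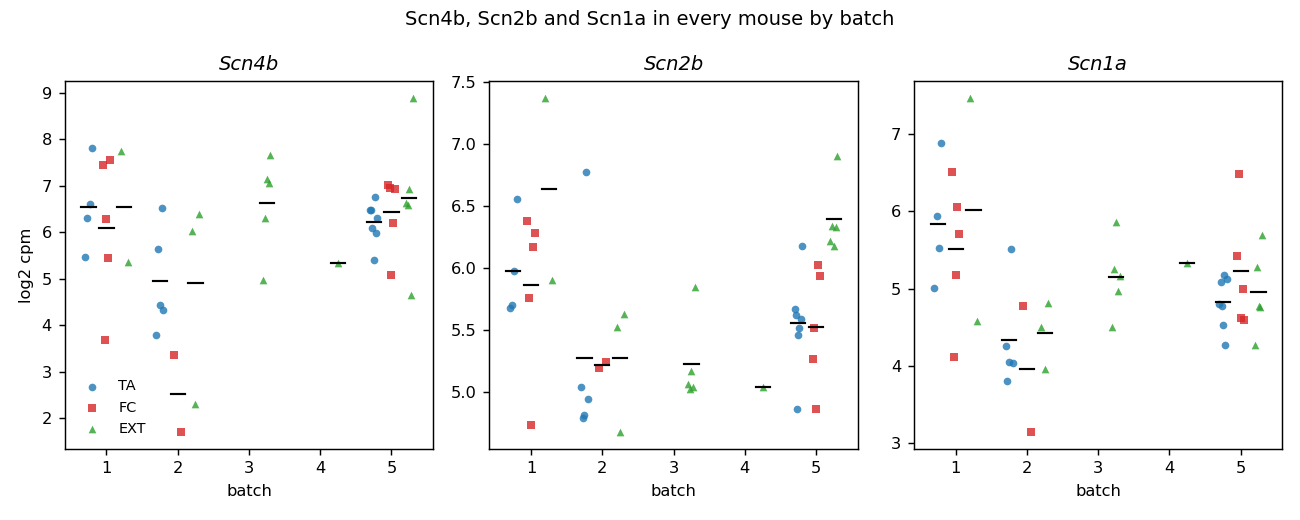
Scn4b, Scn2b and Scn1a in log2 cpm by batch, with each mouse as a point (TA circles, FC squares, EXT triangles) and bars for the means of a group inside a batch. Scn4b ranges over 7.20 on the log2 scale with low values in batch 2, and the EXT mice of batch 5 have higher Scn2b than most TA mice of that batch.

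Genes whose products bind these channels, and genes of the separate sodium leak channel, were counted from lists. The lists were chosen with earlier results of these data known. The background in EXT vs TA was the same 21.4%. Of 12 sodium channel partners, all among the rows, 0 were higher and 1 was lower by the FDR in limma. That was Nedd4, a ubiquitin ligase, at -0.49 (FDR-adjusted p from limma 0.0209). Of 16 calcium channel partners 12 are among the rows, and 2 were higher and 0 lower. They were Stac2, at 0.54 (FDR-adjusted p from limma 0.0167), and Rims1, a scaffold of the active zone, at 0.53 (0.0463). Of the 4 genes of the sodium leak channel, which carries a steady inward current, 2 were higher, the auxiliary subunits Unc79 at 0.91 (FDR-adjusted p from limma 0.0260) and Unc80 at 0.41 (0.0280). The pore gene Nalcn was at -0.40 and did not pass. With batches as categories 0 genes of any list passed the FDR, and Unc79 and Unc80 were at 0.28 and 0.18, Stac2 at 0.33, Rims1 at 0.09 and Nedd4 at -0.35. The HCN partner Pex5l and the CLC partner Ostm1 were at 0.06 and -0.07 and did not pass, and their signs turned with categories, to -0.22 and 0.03.

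In FC vs TA 3 of the 4 leak channel genes, all auxiliary, were higher at a p under 0.05 before adjustment, against 4.22% of all rows, while 0 passed the FDR in limma. The list was chosen with earlier results of these data known, so this count is no test of enrichment. Unc80 was at 0.36 (p = 0.00549 from limma), Fam155a at 0.32 (p = 0.0206) and Unc79 at 0.38 (p = 0.0234). With categories they were at 0.30, 0.34 and 0.29. Nalcn was at -0.09 in this comparison.

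Cell markers moved with the groups as well. In EXT vs TA Crh was at -0.93, Gad1 at -0.62 and Gad2 at -0.27 (FDR-adjusted p from limma 0.0234, 0.0130 and 0.0261), and with categories at -0.32, -0.42 and -0.24, where none of the 3 passed the FDR. The summed level of Gad1 and Gad2 ranged from 9.86 to 10.65 in TA, 9.64 to 10.45 in FC and 9.26 to 10.49 in EXT mice. None of the neuronal, glutamatergic, oligodendrocyte, astrocyte, microglial and choroid plexus markers among the rows passed the FDR. Their summed levels in TA and EXT mice were 11.68 to 12.51 and 11.14 to 12.55 for neurons, 5.34 to 7.86 and 4.35 to 8.34 for glutamatergic cells, 10.40 to 12.59 and 10.82 to 13.68 for oligodendrocytes, 9.14 to 11.20 and 9.67 to 11.46 for astrocytes, and 7.55 to 14.75 and 7.54 to 15.64 for choroid plexus. In FC vs TA Gad2 was at -0.22 (unadjusted p = 0.0163 from limma), and no marker passed the FDR. The median log2 fold change was 0.40 for the 6 astrocyte, 0.29 for the 6 oligodendrocyte and -0.88 for the 4 choroid plexus markers. It was -0.06 for the neuronal and 0.08 for the glutamatergic markers, and the microglial marker was at 0.35. Of the astrocyte markers 1 was higher at an unadjusted p under 0.05, and of the choroid plexus markers 1 was lower. The part of these markers in the values of Cacng2, Cacnb1 and the other channel genes was not tested.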

How the data were processed

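TRAP-seq was used to measure ribosome-bound RNA in 44 mice, 16 TA, 12 FC and 16 EXT. The authors used Trimmomatic 0.36 for trimming, STAR for alignment to GRCm38 and a count of reads per gene. Genes had to exceed a cpm cutoff in every sample, outlying samples were dropped, and the deposited values are log2 cpm in the form given by limma voom. All 44 columns hold this unit, including 12 with bare numbers as names. For each of the 360932 values, a whole read count (tolerance 0.05) was solved back from the reads plus 0.5 and the effective library size. Group, sex and batch came from the labels.

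Pairs of groups were compared on the log2 values of all 8203 rows with lmFit and eBayes of limma 3.58.1 (R 4.3.3), two-sided, with a numeric batch covariate, a factor for sex, and Benjamini-Hochberg adjustment over all rows at 0.05. The coding of batch by the study is not given in the sources used here. A numeric covariate removes only differences that are linear in the batch number, so fits with batches as categories are given beside it. The 95% intervals cover the spread between mice, which includes counting error. Lengths came from GENCODE release 21 (GRCm38) and promoters from RefSeq (GRCm38.p6). Each mouse is a replicate.

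Named are members past the FDR in EXT vs TA, the 3 smallest p in each other comparison and in EXT vs TA with categories, any past the FDR with categories (0), and the 2 highest and 2 lowest per length. Scn4b was added after its values were seen. Some genes that the rule covers are counted but not reported here. Members and lists were chosen with earlier results of these data known. The alternatives treated batch as categories, dropped the batch term, or used no batches 3 and 4, all groups together, a mean log2 value of at least 5, median-centred or quantile-normalized samples, an offset of 2 reads, trended or robust eBayes, voom weights, library size as a covariate, both of categories and library size, and the longest transcript as length. Leaving out each mouse, in fits with the batch number and sex, was added after the data were seen. Python 3.11.15 drew the figures.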

Additional observations from a re-analysis of the deposited data

How the results depend on the processing

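The count of 2 members past the FDR in EXT vs TA (limma) was 2 or 3 under every alternative setting except 4, namely batches as categories, leaving out batches 3 and 4, library size as a covariate, and categories with library size, each of which gave 0. At an unadjusted p under 0.05 the 7 members became 2, 1, 0 and 1 in that order. The share of all rows moved too, from 37.8% to 21.1%, 18.8% and 5.47% in the first 3 of these settings. Past the FDR it was 21.4% with the batch number, 19.7% without a batch term and 23.9% with all 3 groups together. It was 27.1% with a mean log2 value of at least 5. Leaving out each mouse in turn gave 1 to 5 members past the FDR, with 1 when EXT mouse 21, 25 or 53 was left out. It gave 4 without EXT mouse 24, 28 or 52 or TA mouse 35, and 5 without EXT mouse 51 of batch 2. Shares of all rows were not kept for the fits that left out a mouse, so these counts have no background. In FC vs TA the 2 members at p under 0.05 became 4 with categories, 3 with categories and library size, 1 with all 3 groups fitted together and 1 with a mean log2 value of at least 5, a filter that leaves 18 members and drops Cacng2, so that in EXT vs TA its 2 members past the FDR are Cacnb1 and Cacng4. In EXT vs FC the 3 became 1 with categories, 0 without batches 3 and 4, 1 with library size and 1 with both, and lay between 2 and 4 under the other settings. The sign in EXT vs TA turned for 3 of 24 members with categories, 3 without batches 3 and 4, 4 with library size, 11 with both and 1 with quantile normalization. Of the members named by rule these were Clcn6 (-0.0845 with categories, -0.10 without batches 3 and 4, -0.058 with library size, -0.23 with both), Cacng3 (-0.0766 with library size, -0.0096 with both), Cacnb3 (-0.0194 with both) and Cacna1e (-0.0111 with both), none of them past the FDR in the fits named here. The per-length level of Cacna1e moved from -0.45 to 0.30 with the longest transcript. The cause of these changes was not tested. Where no share of all rows is given, a change in the count of members is not a result about the channel genes. No paired analysis was possible because each animal is in 1 group and the labels give no replicate number shared between groups.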
